A study of Mus musculus with 7 samples.

Results

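The enzymes that write, copy and erase DNA methylation were followed by name through 4 RNA-seq and 3 ChIP-seq libraries of mouse embryonic stem cells (ESCs). They are Tet1, Tet2, Tet3, Dnmt1, Dnmt3a, Dnmt3b, Dnmt3l and Uhrf1, 8 of the 31498 genes that have at least 200 exonic bases of their own in the GENCODE M1 annotation of mm9. F123 cells are hybrid ESCs whose parents were of the castaneus (CAST) and 129 strains. RNA was sequenced from wild type F123 cells and from clones in which the distal Sox2 super-enhancer had been cut out by CRISPR. CAST+/129- cells lack the 129 copy, CAST-/129+ cells the CAST copy and CAST-/129- cells both. H3K4me3, a mark of active promoters, was profiled in wild type F123 cells, and H3K27ac, a mark of active promoters and enhancers, in wild type F123 cells and in J1, another ESC line. Each genotype is 1 clone and 1 library. The deletion clones had been recovered and selected on fibroblast feeders, and the cells harvested had last been grown on gelatin, off feeders.

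DNA methylation in mammals sits mostly on the cytosine of CpG. Dnmt3a and Dnmt3b place it on unmethylated DNA, and Dnmt3l, which has no catalytic activity of its own, stimulates both. Dnmt1 copies it to the new strand after replication, and Uhrf1 brings Dnmt1 to hemimethylated sites. Tet1, Tet2 and Tet3 oxidise methylcytosine, which starts its removal. Naive ESCs are known for high Tet1 and Tet2 and for a low level of methylation, and the primed epiblast for high Dnmt3b.

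Levels are given in FPKM, the distinct alignments per kilobase of exon, scaled to the alignments on genes, with the exact 95% Poisson interval in the plots. Ratios are given as a percentage of the wild type FPKM with an exact 95% binomial interval. For a read over a splice junction, the alignments counted are its segments in each exon. Both intervals cover counting error only and take the distinct segments as independent. Since a genotype is 1 library, differences between genotypes could not be tested or set against a spread between replicates. Alignments on genes numbered 24848422 in the wild type library and between 5831199 and 12458881 in the deletion clones. Sox2 itself was at 175 FPKM in wild type and 82.0, 73.1 and 7.40 in CAST+/129-, CAST-/129+ and CAST-/129-, in the order of the labels.

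Tet1 and Tet2 were lower and Dnmt3a, Dnmt3b and Dnmt3l higher in the deletion clones than in the wild type. The exception was Dnmt3a over its last 1000 exonic bases, which hold few alignments, where the values lay below wild type. Dnmt1 and Uhrf1 lay between 85.2% and 109% of the wild type level. In reads before collapsing they lay between 70.6% and 88.3%, and with each start position counted once between 113% and 139%. The latter count cannot exceed the exonic bases of a gene, which the wild type alignments of both genes did. Summed over Tet1, Tet2 and Tet3, the level was 166 FPKM in wild type and 84.3, 58.2 and 47.9 in CAST+/129-, CAST-/129+ and CAST-/129-. Summed over Dnmt3a, Dnmt3b and Dnmt3l, it was 106 in wild type and 229, 248 and 181 in the same order of clones. For Dnmt1 and Uhrf1 together it was 199, 199, 192 and 192. By the 3-fold rule on FPKM plus 4, only Tet2 was called among the members, lower in CAST-/129- and in CAST-/129+, and no member was called higher in any clone. Counted in reads before collapsing, Tet1 was also called lower in CAST-/129- and Dnmt3b higher in CAST-/129+. The share of all genes called lower was 0.511% in CAST-/129-, 0.33% in CAST-/129+ and 0.305% in CAST+/129-, and the share called higher 0.819%, 0.473% and 0.321%. The median log2 ratio of the members was 0.09 in CAST-/129-, -0.05 in CAST-/129+ and 0.00 in CAST+/129-, beside a median of -0.08, -0.06 and -0.03 over all genes whose mean FPKM reached 1.

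Past 2-fold on the same scale, Tet1 and Tet2 were lower and Dnmt3b higher in CAST-/129- and in CAST-/129+, and Tet2 was lower and Dnmt3b and Dnmt3l higher in CAST+/129-. Among genes whose mean FPKM reached 10, the share lower by 2-fold was 4.52% in CAST-/129-, 3.14% in CAST-/129+ and 2.34% in CAST+/129-, and the share higher 4.22%, 3.28% and 2.82%. Counting intervals alone set no member apart, because they lay wholly above 100% for 28.3%, 28.3% and 32.3% of genes with at least 100 wild type alignments, and wholly below it for 46.3%, 45.4% and 45.1%. They did so for 4 members above and 3 below in CAST-/129-, and 3 above and 3 below in each monoallelic clone. In bulk RNA, fewer cells of a type and less RNA per cell cannot be told apart.

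**Figure D1:**
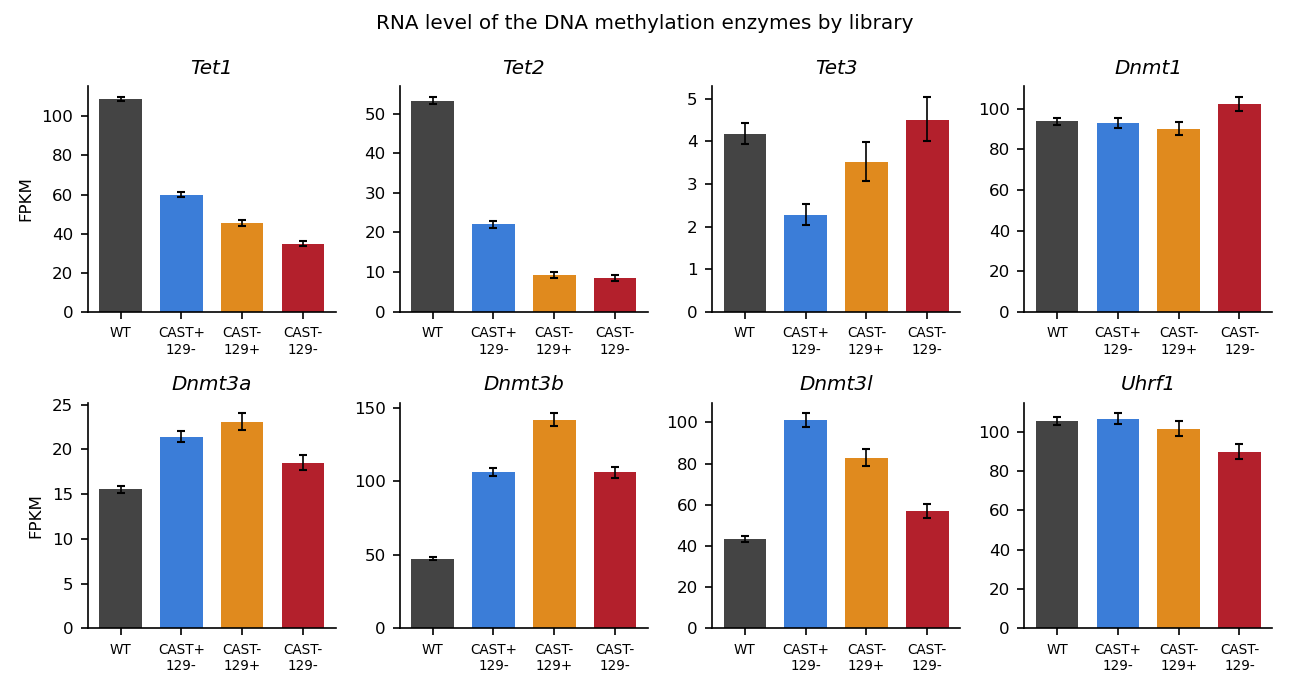
FPKM (vertical axis, from 0, scale set per gene) of the 8 genes in the 4 RNA-seq libraries (WT, wild type). Bars are the value of 1 library and error bars its exact 95% Poisson interval. Tet1 and Tet2 are highest in wild type, at 109 and 53.3, Dnmt3b is highest in CAST-/129+ at 142, and Dnmt1 lies between 90.2 and 102 throughout.

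Tet1 (ENSMUSG00000047146.8, chr10:62267318-62361866, minus strand, mm9) was the most abundant Tet gene, at 109 FPKM in wild type and 60.0, 45.4 and 34.9 in CAST+/129-, CAST-/129+ and CAST-/129-. The counts behind these were 39818, 10996, 4048 and 2992. The level was thus highest in wild type and lowest where both super-enhancers were gone. CAST-/129- held 32.0% of the wild type level (30.8 to 33.2), CAST-/129+ 41.7% (40.4 to 43.1) and CAST+/129- 55.1% (53.9 to 56.3). Between clones, CAST-/129- was at 76.8% (73.2 to 80.5) of CAST-/129+. Its log2 ratio of -1.54 in CAST-/129- lies just inside the 3-fold limit of 1.58, and counting reads before collapsing or counting the last 1000 exonic bases placed Tet1 past it. Counting each start position once moved it the other way, to 59.2% in CAST-/129-, 77.7% in CAST-/129+ and 93.5% in CAST+/129-. That count cannot exceed the 14710 exonic bases, fewer than the 39818 wild type alignments, so it holds down the wild type value most. Over the 12 coding exons with at least 50 wild type alignments, the level in CAST-/129- was below wild type in 12, between 28.9% and 74.2%, and 10 of the intervals lay below 100%. In CAST+/129- and in CAST-/129+, 11 were below wild type and 1 above, with highest values of 107% and 121%, and 9 of the intervals lay below 100%. The exon above, chr10:62327556-62327609, is 54 bases long. In wild type 54 distinct segments started at its left edge, about as many as its length allows. Its ratio thus cannot show whether its level fell.

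Tet1 has a transcription start that GENCODE M1 does not hold. The RefSeq start, placed on mm9 by an exact match of its sequence, lies at position 62350072 of chromosome 10, within the first intron of Tet1-001. Distinct 5′ ends of H3K4me3 within 2 kb of it were at 23.5-fold the chromosome 3 mean, against 4.25-fold at the best GENCODE start, and H3K27ac was at 81.6-fold in F123 and in J1 at 35.97-fold. The 1 kb bin from 62349001 to 62350000 held 58.0-fold H3K4me3. The first exon of Tet1-001, further upstream, held only 11 alignments in wild type and 5, 3 and 0 in CAST+/129-, CAST-/129+ and CAST-/129-. The first intron of Tet1-001 held 2108, 841, 282 and 149 sense alignments, or 84.8, 67.5, 46.5 and 25.6 CPM (counts scaled to the alignments on genes). CAST-/129- was at 30.1% of wild type there (25.3 to 35.6), beside 32.0% over the exons, CAST-/129+ at 54.9% (48.3 to 62.2) and CAST+/129- at 79.6% (73.4 to 86.2). The 250 bases before the RefSeq start are shown because this start is not in GENCODE. The 58.0-fold H3K4me3 bin given above is the next one downstream. They run from 62350073 to 62350322 on the minus strand and hold 15 CpG, written in capitals.
Tet1 promoter: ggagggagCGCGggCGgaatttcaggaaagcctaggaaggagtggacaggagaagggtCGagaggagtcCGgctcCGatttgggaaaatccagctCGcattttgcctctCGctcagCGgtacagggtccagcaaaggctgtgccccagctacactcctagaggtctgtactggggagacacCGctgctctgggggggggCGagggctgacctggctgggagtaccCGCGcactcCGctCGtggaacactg

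Tet2 (ENSMUSG00000040943.7, chr3:133126643-133207354, minus strand) had the lowest level relative to wild type of all 8 members. Its FPKM was 53.3 in wild type and 22.1, 9.27 and 8.50 in CAST+/129-, CAST-/129+ and CAST-/129-, from 12182, 2529, 517 and 456 alignments. The 2 clones that lack the CAST copy were close to each other and far below the clone that lacks the 129 copy. CAST-/129- held 16.0% of wild type (14.5 to 17.5), CAST-/129+ 17.4% (15.9 to 19.0) and CAST+/129- 41.4% (39.7 to 43.2). CAST-/129- was at 91.6% (80.6 to 104) of CAST-/129+, an interval that includes no difference. CAST-/129+ was at 42.0% (38.2 to 46.2) of CAST+/129-. Sox2 was at 73.1 FPKM in CAST-/129+ and 82.0 in CAST+/129-. The cause of the Tet2 difference between these 2 clones was not tested. All 8 coding exons with at least 50 wild type alignments lay below wild type in every clone with intervals that excluded 100%.

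The Tet2 promoter is among the densest in CpG of the genome. Its 250 bases before the RefSeq start, chr3:133207355-133207604, hold 51 CpG, more than 99.9% of the 32851 RefSeq promoters, whose median is 6. This promoter had 19.2-fold H3K4me3, 39.2-fold H3K27ac in F123 and 17.7-fold in J1. It is shown for its repeated CpG-rich units, with CpG in capitals.
Tet2 promoter: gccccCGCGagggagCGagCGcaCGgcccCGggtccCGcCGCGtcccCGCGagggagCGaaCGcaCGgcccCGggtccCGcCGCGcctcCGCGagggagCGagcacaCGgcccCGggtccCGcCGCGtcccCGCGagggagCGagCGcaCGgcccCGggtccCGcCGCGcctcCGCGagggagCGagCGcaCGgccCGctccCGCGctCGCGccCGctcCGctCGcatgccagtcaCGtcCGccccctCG

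Tet1 and Tet2, and to a lesser extent some other members, also carried H3K27ac beyond their starts. Tet1 had an uninterrupted run of 23 bins of 1 kb, from 62345001 to 62368000, that were at least 10-fold in both ESC lines, with a maximum of 172-fold (F123) and 96.9-fold (J1). This run holds the RefSeq start and the start of Tet1-001, and the F123 maximum lies within 1 kb of the RefSeq start. Over 2 kb from any start the Tet1 maxima were 161-fold (F123) and 96.9-fold (J1). In Tet2, runs of 7, 4 and 7 such bins lay inside the gene, from 133176001 to 133183000, 133186001 to 133190000 and 133193001 to 133200000, with maxima of 64.9, 43.9 and 123.4-fold in F123. H3K4me3 did not exceed 6.22-fold in these 3 runs. Dnmt3a had a run of 9 such bins, from 3884001 to 3893000, with maxima of 75.3-fold (F123) and 28.1-fold (J1). That run holds the short-form start, and most of it lies within 2 kb of annotated Dnmt3a starts. Of the 74 bins of Tet2 that lie over 2 kb from a start, 19 were at least 10-fold in both lines, and of 72 in Tet1, 12. In Tet3 the count was 0 of 72, in Dnmt3b 0 of 27, in Dnmt3l 0 of 8, in Dnmt3a 3 of 66, in Dnmt1 4 of 44 and in Uhrf1 1 of 7. The share was 1.73% over all bins in protein-coding genes and 1.04% over the genome. The bins were profiled in wild type cells only.

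**Figure D2:**
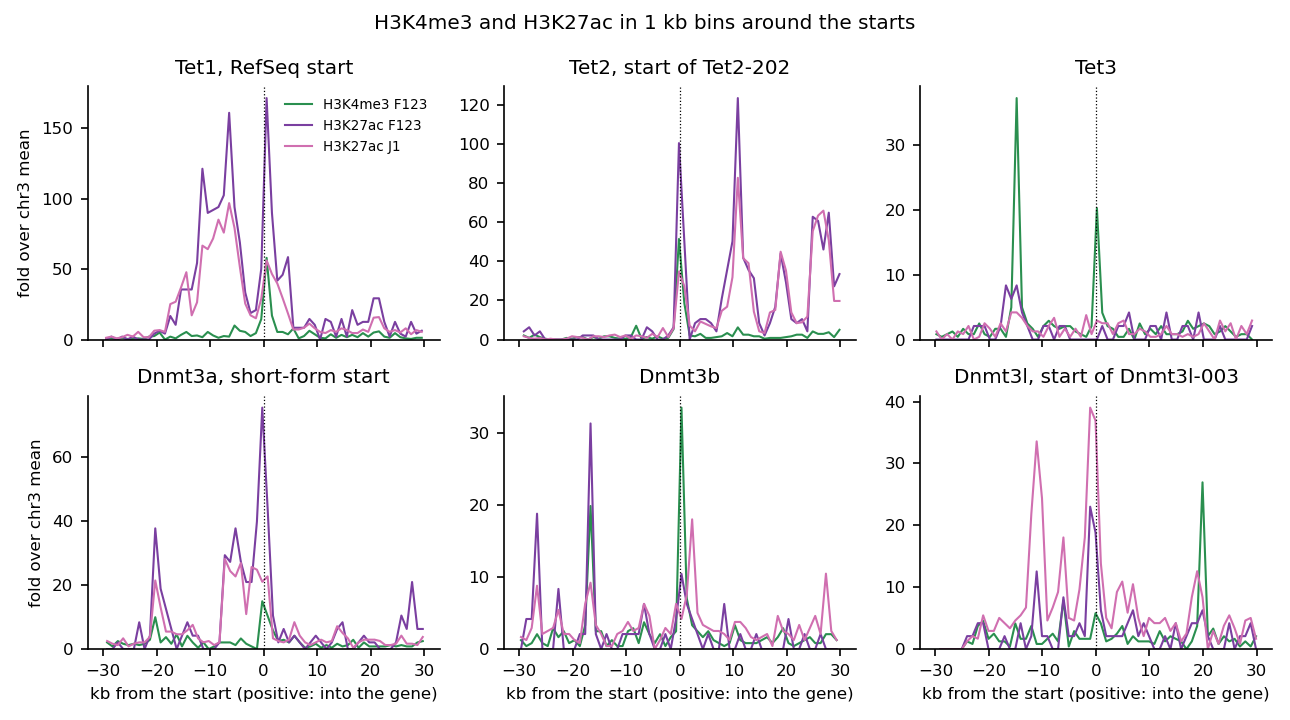
Fold over the chromosome 3 mean (vertical axes, scale set per gene) of distinct 5′ ends in 1 kb bins, against the distance from a start in kb (horizontal axis, positive values run into the gene), for 1 library of each mark. Tet1 carries a run of 23 bins of high H3K27ac around its RefSeq start and Tet2 separate runs inside the gene. Dnmt3a carries a run of 9 bins that holds its short-form start. Tet3 and Dnmt3b have H3K4me3 at the start with H3K27ac of at most 10.5-fold in the F123 bin at the start.

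Tet3 (ENSMUSG00000034832.8, chr6:83312367-83391672, minus strand) was low in every library. It was at 4.18 FPKM in wild type and 2.27, 3.51 and 4.50 in CAST+/129-, CAST-/129+ and CAST-/129-, from 1152, 314, 236 and 291 alignments. CAST-/129- was at 108% of wild type (94.3 to 122.5), CAST-/129+ at 84.0% (72.7 to 96.7) and CAST+/129- at 54.4% (47.8 to 61.6). The order of the clones thus differed from that of Tet1 and Tet2, and the interval of the biallelic clone included 100%. Over the last 1000 exonic bases, with 64 alignments in wild type and 9, 23 and 26 in the clones, the values were 173% (105 to 277) for CAST-/129-, 131% (77.7 to 214) for CAST-/129+ and 26.8% (11.7 to 54.2) for CAST+/129-. Its promoter had 7.15-fold H3K4me3 with 0.523-fold H3K27ac in F123, a single 5′ end, and 2.20-fold in J1. A taller H3K4me3 bin, 37.3-fold, lay 14.8 kb from the nearest annotated Tet3 start, beyond the gene, with 8.37-fold H3K27ac in F123 and 4.20-fold in J1.

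Dnmt3b (ENSMUSG00000027478.9, chr2:153475186-153513466, plus strand) had the highest ratio to wild type of the members in CAST-/129+ and CAST-/129-. It was at 47.4 FPKM in wild type and 106, 142 and 106 in CAST+/129-, CAST-/129+ and CAST-/129-, from 6012, 6752, 4392 and 3158 alignments. Every clone lay above wild type, with the highest value in a monoallelic clone. The ratio was 224% (216 to 232), 299.6% (288 to 312) and 224% (214 to 234) in CAST+/129-, CAST-/129+ and CAST-/129-. CAST-/129- was at 99.9% (95.8 to 104) of CAST+/129-, so those clones differed by less than counting error. All 19 coding exons with at least 50 wild type alignments were above wild type in every clone, with intervals that excluded 100%. In wild type there was 0.435 as much Dnmt3b as Tet1 RNA by FPKM, against 1.77, 3.13 and 3.04 in CAST+/129-, CAST-/129+ and CAST-/129-.

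The Dnmt3b promoter carried H3K4me3 at 11.4-fold with H3K27ac at 5.75-fold (F123) and 5.35-fold (J1), below the H3K27ac of the Tet2, Dnmt1 and Uhrf1 promoters. The 250 bases before its RefSeq start, chr2:153474935-153475184, hold 21 CpG, in capitals.
Dnmt3b promoter: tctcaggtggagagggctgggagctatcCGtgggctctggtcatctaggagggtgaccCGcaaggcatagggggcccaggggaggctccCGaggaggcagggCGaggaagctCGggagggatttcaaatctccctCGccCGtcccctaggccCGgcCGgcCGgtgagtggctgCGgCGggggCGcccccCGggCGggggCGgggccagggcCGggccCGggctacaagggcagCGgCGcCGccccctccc

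The density of alignments over some Dnmt3b exons also differed between libraries. Exons 22 and 23 of Dnmt3b-001, 70 and 119 bases long, are absent from 4 of the 10 protein-coding Dnmt3b transcripts of GENCODE M1. The exons are known to encode part of the catalytic domain, and forms without them are regarded as inactive. In wild type the density of alignments over exons 22 and 23 was 42.7% (35.1 to 51.5) of that over exons 19 to 21, from 136 and 550 alignments. It was 76.5% (65.7 to 88.8), 69.5% (57.6 to 83.6) and 78.3% (63.3 to 96.4) in CAST+/129-, CAST-/129+ and CAST-/129-. The wild type interval lay below that of every clone, and the intervals of the clones overlapped. Counted in reads, the values were 30.6%, 65.0%, 55.5% and 74.0%. Segments that start at the left edge of exon 22 over those at the left edge of exon 24, 22 over 56 in wild type, gave 39.3% (22.8 to 65.4), and the clones 62.5% (42.1 to 92.0), 56.0% (33.9 to 90.7) and 82.9% (48.9 to 140), intervals that overlap. Distinct segments at an edge are limited by exon or read length, unequally for these exons, so the overlap decides nothing. The level of exons 22 and 23 alone was 29.0 FPKM in wild type against 108, 141 and 121 in the clones. Exon 11, also absent from 4 of the 10 transcripts, had a density of 145% of its neighbours in wild type (119 to 177), and of 134% (110 to 163), 172% (137 to 215) and 156% (120 to 203) in CAST+/129-, CAST-/129+ and CAST-/129-, all overlapping. Exon 8, which 0 of the 10 transcripts lack, was also low in wild type, at 35.4 FPKM against 75.1 and 49.6 at exons 7 and 9. In CAST+/129-, CAST-/129+ and CAST-/129- it was at 117, 163 and 100, against 171, 207 and 157 at exon 7 and 109, 167 and 110 at exon 9. Whether the difference at exons 22 and 23 is one of exon use was not tested. The sequences of exons 22 and 23 are shown, from chr2:153509344-153509413 and chr2:153510095-153510213.
Dnmt3b exon 22: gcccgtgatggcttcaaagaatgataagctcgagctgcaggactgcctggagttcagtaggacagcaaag
Dnmt3b exon 23: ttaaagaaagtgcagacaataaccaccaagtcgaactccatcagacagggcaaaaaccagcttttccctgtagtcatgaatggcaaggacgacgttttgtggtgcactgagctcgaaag

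**Figure D3:**
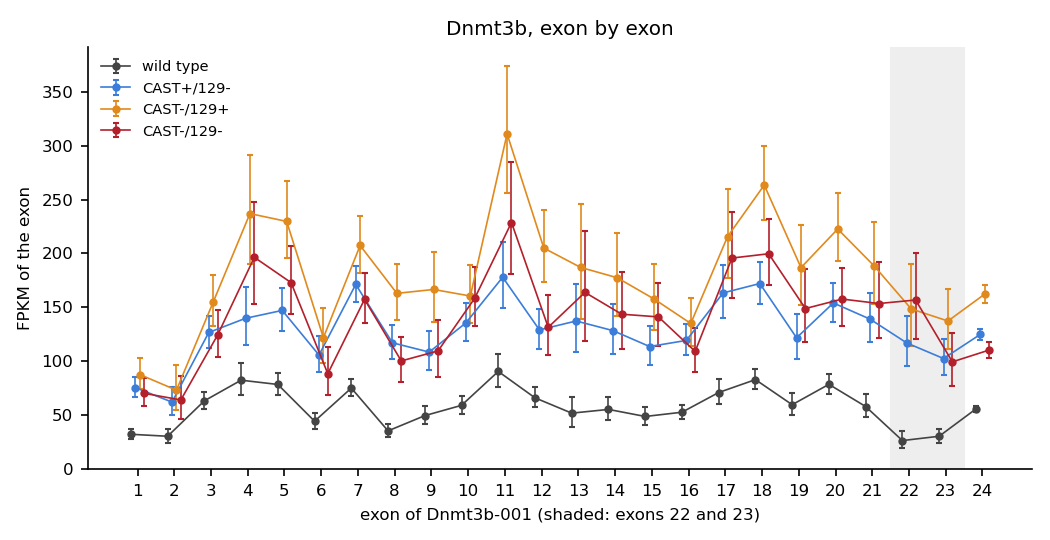
FPKM (vertical axis, from 0) of each exon of Dnmt3b-001 (horizontal axis, exon number) in the 4 RNA-seq libraries, with exact 95% Poisson intervals; exons 22 and 23 are shaded. The wild type line drops at the shaded exons to a level of 29.0 against 67.9 over exons 19 to 21, while the clones keep 69.5% to 78.3% of their level there. Wild type is also low at exons 1, 2 and 8, at 32.3, 30.4 and 35.4, and exons 1 and 8 are in all 10 protein-coding transcripts.

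Dnmt3l (ENSMUSG00000000730.7, chr10:77504692-77526367, plus strand) was at 43.4 FPKM in wild type and 101, 82.8 and 56.8 in CAST+/129-, CAST-/129+ and CAST-/129-, from 3219, 3765, 1499 and 990 alignments. It was highest in the clone with the CAST super-enhancer intact and lowest, among clones, in CAST-/129-. The ratio was 233% (222 to 245), 191% (180 to 203) and 131% (122 to 141) in that order. CAST-/129- was at 56.2% (52.3 to 60.3) of CAST+/129-. The first exon of Dnmt3l-003 carried 96, 92, 30 and 17 alignments, against 3, 2, 0 and 0 over that of the upstream Dnmt3l-001. The start of Dnmt3l-003 had 3.11-fold H3K4me3, 12.5-fold H3K27ac in F123 and 24.02-fold in J1. Its 250 bases, chr10:77512337-77512586, hold 4 CpG, the fewest of the starts shown.
Dnmt3l promoter: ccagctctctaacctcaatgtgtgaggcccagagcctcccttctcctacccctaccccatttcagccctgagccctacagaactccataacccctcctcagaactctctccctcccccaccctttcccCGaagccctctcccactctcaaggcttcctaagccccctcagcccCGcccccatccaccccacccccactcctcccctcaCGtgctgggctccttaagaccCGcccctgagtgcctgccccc

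Dnmt3a (ENSMUSG00000020661.9, chr12:3806007-3914443, plus strand) was at 15.5 FPKM in wild type and 21.4, 23.1 and 18.5 in CAST+/129-, CAST-/129+ and CAST-/129-, from 6424, 4442, 2328 and 1799 alignments. The clones lay modestly above wild type, at 138% (133 to 143), 149% (142 to 156) and 119% (113 to 126). Over the last 1000 exonic bases, with 92, 21, 18 and 14 alignments, the values lay below wild type, at 43.5% (25.7 to 70.5), 71.4% (40.5 to 119) and 64.7% (34.1 to 114), and the latter 2 intervals include 100%. Most of these bases, chr12:3913492-3914443, were at 3.38, 1.60, 2.77 and 1.44 FPKM in wild type, CAST+/129-, CAST-/129+ and CAST-/129-. The coding exons from 3895543 to 3906883 were at 59.6, 93.7, 98.4 and 76.2 in the same order.

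Dnmt3a has a long form and a short form that starts at an internal promoter, the form known to prevail in ESCs. The coding exons upstream of the internal start, used by the long form alone, had 18.2% (15.3 to 21.4) of the density of the exons downstream of it in wild type and 16.1% (13.1 to 19.6), 6.84% (4.32 to 10.3) and 21.9% (16.4 to 28.8) in CAST+/129-, CAST-/129+ and CAST-/129-. The share was lowest in CAST-/129+, whose 23 alignments over the long-form exons gave an interval below those of the other 3 libraries. The first exon of the short form held 48, 36, 19 and 27 alignments. The upstream start with the most H3K4me3, whose own first exon had 0 alignments in every library, had 15.6-fold H3K4me3 with 3.14-fold H3K27ac in F123 and 4.20-fold in J1, and the short-form start 7.46-fold H3K4me3 with 44.4-fold and 19.9-fold. The bases from chr12:3891494-3891727, before the short-form start, hold 15 CpG in 234 bases.
Dnmt3a short-form promoter: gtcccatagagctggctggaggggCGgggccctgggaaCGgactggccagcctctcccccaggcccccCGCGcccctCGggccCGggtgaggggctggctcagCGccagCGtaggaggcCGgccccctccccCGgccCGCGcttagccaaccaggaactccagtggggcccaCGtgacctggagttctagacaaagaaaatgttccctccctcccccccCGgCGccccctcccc

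Dnmt1 (ENSMUSG00000004099.8, chr9:20711650-20757317, minus strand) was at 93.8 FPKM in wild type and 92.9, 90.2 and 102 in CAST+/129-, CAST-/129+ and CAST-/129-. The ratios were 99.1% (96.1 to 102), 96.2% (92.3 to 100.2) and 109% (105 to 113). Counted in reads, they were 76.5%, 70.6% and 81.5%, and Dnmt1 held 3.49 reads per alignment in wild type against 1.84, 1.60 and 1.47 in the clones. Uhrf1 (ENSMUSG00000001228.8, chr17:56442744-56462909, plus strand) was at 105 FPKM in wild type and 107, 102 and 89.8 in CAST+/129-, CAST-/129+ and CAST-/129-. The ratios were 101% (97.9 to 104), 96.3% (92.3 to 100.5) and 85.2% (81.3 to 89.1), and 88.3%, 78.0% and 72.4% in reads. With each start position counted once, both genes lay above wild type in every clone, Dnmt1 at 117%, 113% and 125% and Uhrf1 at 136%, 139% and 128%. Such a count cannot exceed the exonic bases of a gene. Wild type held 12267 alignments on 5264 bases for Dnmt1 and 11154 on 4259 for Uhrf1. This setting therefore holds down the deep wild type library most and cannot show whether the level rose. Both promoters carried all marks. H3K4me3 was at 17.0-fold for Dnmt1 and 19.6-fold for Uhrf1, H3K27ac in F123 at 24.6-fold and 29.8-fold and in J1 at 15.1-fold and 20.8-fold.

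By the promoter with the most H3K4me3 in GENCODE, 6 of the 8 members had at least 5-fold H3K4me3, 5 had at least 5-fold H3K27ac in F123 and 6 in J1. Over all protein-coding genes the shares were 50.9%, 33.2% and 29%. The 2 members below it for H3K4me3 were Tet1, whose start used by H3K4me3 is not in GENCODE, and Dnmt3l. These counts follow the start with the most H3K4me3, and the values at the RefSeq start of Tet1, the short-form start of Dnmt3a and the start of Dnmt3l-003 are those given above.

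**Figure D4:**
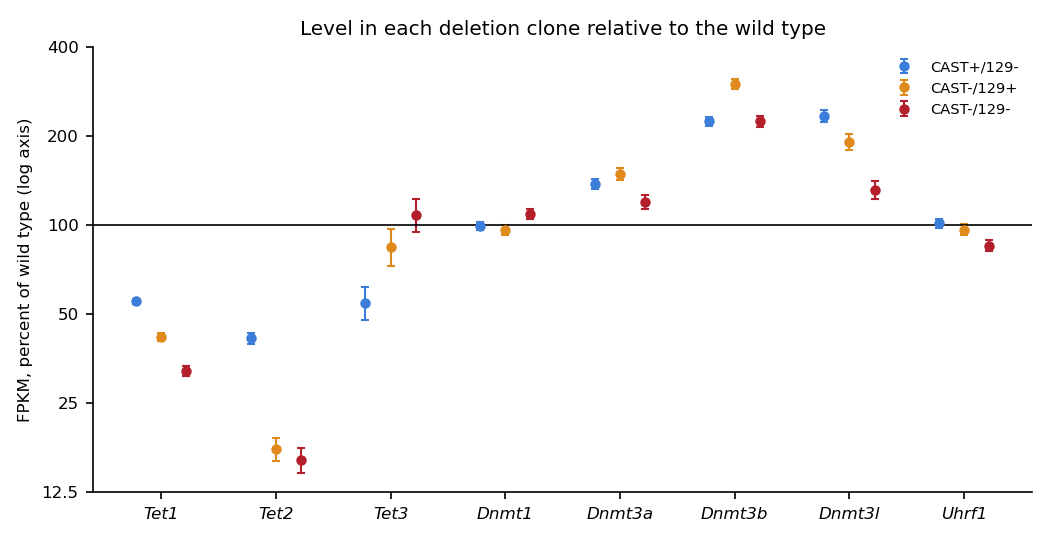
FPKM of each deletion clone as a percentage of wild type (vertical axis, log scale) for the 8 genes, with exact 95% binomial intervals that cover counting error only. Tet1 and Tet2 lie below 100% in all 3 clones, Dnmt3a (over all its exons), Dnmt3b and Dnmt3l above it, and Dnmt1 and Uhrf1 between 85.2% and 109%.

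Compared per coding base, which suits differences in untranslated length, wild type Tet1 and Uhrf1 were at 216 and 214 FPKM and above 98.2% of protein-coding genes. Dnmt1 was at 149, Dnmt3l at 118, Tet2 at 98.9, Dnmt3b at 94.6, Dnmt3a at 75.5 and Tet3 at 8.82. In CAST-/129-, Dnmt3b was the highest member at 213, Tet1 was at 71.0 and Tet2 at 15.6. Counted this way the ratios in CAST-/129- were 32.9% for Tet1, 15.8% for Tet2 and 225% for Dnmt3b.

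The other 53 genes of the pathway were grouped in 7 roles. In CAST-/129-, 2 were higher and 3 lower by 3-fold, beside 0.819% and 0.511% of all genes. In CAST+/129- and in CAST-/129+, 2 were higher, beside 0.321% and 0.473%, and 1 lower, beside 0.305% and 0.33%. The median log2 ratio was -0.20 in CAST-/129-, -0.05 in CAST+/129- and -0.10 in CAST-/129+. The 7 maintenance partners had 0 calls in any clone, and the lowest in CAST-/129- was Cdca7, at -0.73. The 4 methyl donor enzymes and the 7 readers also had 0 calls, with Mat2a at 0.32 and Mbd3 at 0.67 in CAST-/129-. Among Tet partners and cofactor enzymes, Idh2, which makes the Tet cofactor, was lowest at -1.01.

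Of the 8 regulators of de novo methylation, Dppa3 was called higher in all 3 clones and Prdm14 lower in CAST-/129- alone. Prdm14, which represses Dnmt3b in naive ESCs, was at 13.2 FPKM in wild type and 3.82, 4.25 and 1.07 in CAST+/129-, CAST-/129+ and CAST-/129-. Dppa3, known to protect DNA from demethylation in the zygote, was at 6.86, 89.4, 108 and 31.1, and its copies in the genome may share reads. Of the 12 excision and repair genes, Gadd45g, a regulator of demethylation, was at 0.686, 13.3, 14.6 and 21.2 FPKM, higher by 3-fold in all 3 clones. Of the 10 germline genes silenced by methylation, Dazl was lower by 3-fold in all 3 clones, at 73.4, 19.4, 13.7 and 5.97 FPKM, and Rpl10l, a retrocopy that may share reads with Rpl10, in CAST-/129-, at 72.6 in wild type and 19.99 there. In the same list Stk31 was at 9.19, 21.8, 22.6 and 3.76 and Tex19.1 at 31.8, 58.0, 53.8 and 33.6, neither past 3-fold, and both were named after their values were seen.

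By the distance over the 3 log2 ratios, the genes most like Tet2 among those whose mean FPKM reached 10 were Triml2 at 0.34, 6430527G18Rik at 0.42, Etv4 at 0.47, Nlrp4f at 0.51 and Slc7a5 at 0.53, of 7014 genes compared over 3 clones. Triml2 was at 115 FPKM in wild type and 56.2, 25.3 and 17.2 in CAST+/129-, CAST-/129+ and CAST-/129-. All comparisons share the wild type library.

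Markers of other cell types also differed between the libraries. The summed FPKM of 7 trophectoderm markers was 29.0 in wild type and 322, 553 and 542 in CAST+/129-, CAST-/129+ and CAST-/129-, mostly from the keratins Krt8, at 14.6, 139, 264 and 279, and Krt18, at 1.81, 133, 229 and 231. Of the lineage factors of that list, Eomes was at 3.89, 18.3, 28.3 and 13.1 and Tfap2c at 8.49, 24.7, 22.3 and 15.7, with Cdx2 at 0.0712, 0.710, 1.09 and 1.59, Elf5 at 0.0274, 2.12, 4.27 and 0.117, and Gata3 at 0.144, 3.87, 3.22 and 1.36. The 10 feeder fibroblast markers summed to 21.9, 75.4, 79.8 and 393, mostly from collagens in the clones, with Col1a1 at 3.48, 39.0, 38.9 and 174. Among them Thy1 was at 11.4, 5.69, 6.28 and 27.7, Pdgfrb at 2.34, 2.14, 4.07 and 9.02, and 1 was at 0 in wild type. The 2 primed epiblast markers measured beside Dnmt3b, Fgf5 and Otx2, summed to 3.33, 27.9, 55.3 and 39.7, in the order wild type, CAST+/129-, CAST-/129+ and CAST-/129-. The 4 mesoderm markers summed to 0.921, 3.85, 27.1 and 58.5, the 4 primitive endoderm markers to 66.5, 7.19, 35.4 and 24.8, with Gata6 at 42.9, 2.94, 6.77 and 4.51 but Foxa2 at 1.36, 0.643, 9.05 and 11.4, and the 3 ectoderm markers to 2.33, 14.8, 11.3 and 21.4, mostly from Nes, at 1.80, 14.3, 10.5 and 19.9, while Pax6 lay between 0.0666 and 0.142. The 9 ESC markers summed to 1417, 1089, 1036 and 810, and 6 of them were lower by 3-fold in CAST-/129- and 3 in each monoallelic clone. Among them Klf4 was at 120.5, 19.3, 13.9 and 8.29, Pou5f1 at 188, 132, 207 and 163, and Dppa5a at 461, 529.7, 547 and 479.6. The markers named singly were chosen after their values were seen. The part of these cell types in the Tet and Dnmt values was not tested.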

How the data were processed

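Per the labels and the study's methods, polyA RNA was sequenced as stranded paired reads and aligned with Novoalign, and ChIP reads with Bowtie, to mm9. The deposited files hold 1 line per distinct alignment, with the count of reads behind it. Many RNA lines start or end at exon edges, so a line there is a distinct segment within an exon. A read over a junction can thus count in more than 1 exon, and short exons allow few distinct segments. In wild type, the 37-base Dnmt1 exon at chr9:20747027-20747063 had 33 segments at each edge. Versions of the aligners are not given in the sources used here. Sense alignments in annotated introns of the members were at most 60 per library except for Tet1. Whether intronic alignments were removed before deposit is not given in the sources used here, so a low intron count is no measure of intronic RNA.

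Distinct alignments were counted with a midpoint in exons unique to 1 gene on that strand of GENCODE M1 (Python 3, numpy and scipy). FPKM used the sum over genes with at least 200 such bases. The study's rule, a 3-fold limit after adding 4 to the FPKM, was kept. Mark density is the count of 5′ ends within 2 kb of a start over the chromosome 3 mean of that library, with no input. Intervals are exact at 95%. The 3-fold rule and the ratio intervals were tested on simulated independent Poisson counts. These leave out the collapsing of reads to distinct alignments and any spread between clones, so they do not test the intervals for the data as collapsed. Sequences are from RefSeq (GRCm38.p6) placed on mm9 by exact match, or from mm9. Named genes are the 8 members, pathway genes past 3-fold in any clone or largest in their role in CAST-/129-, the 5 genes nearest to a called member, and Sox2. Outside this rule, Stk31, Tex19.1 and the single cell type markers were named after their values were seen. The members, lists and rules were chosen with earlier results of these data known, and the RefSeq starts and the exon ratios after the values were seen. Protein sequences were not used here. The label of the H3K4me3 antibody and the study's methods name different antibodies. Pou3f1 of the primed epiblast markers and Sox1 of the ectoderm markers were not measured here.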

Additional observations from a re-analysis of the deposited data

Results flagged for a closer look

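Sense alignments in annotated introns, which no comparison of gene levels uses, exceeded the 3 counts that a count of 0 allows in wild type for Tet1, with 2108, for Dnmt1, with 60, and for Dnmt3a, with 15. Of the Tet1 alignments, 1826 lay in the intron piece that contains the RefSeq start, and in CAST-/129- 125. The deletion clones had 35, 6 and 16 such alignments for Dnmt1 in the order CAST+/129-, CAST-/129+ and CAST-/129-, and 4, 0 and 3 for Dnmt3a.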

How the results depend on the processing

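No paired analysis was possible because each group holds 1 library. Leaving out a replicate was not possible for the same reason. Member calls in CAST-/129- numbered 1 and were 2 with reads before collapsing, 2 with a pseudo-value of 1, 2 with the last 1000 exonic bases, 3 at 2-fold and 0 at 5-fold. In CAST-/129+ they numbered 1 and were 2 with reads, 3 at 2-fold and 0 at 5-fold, and in CAST+/129- they numbered 0 and were 3 at 2-fold. The calls over all genes moved too. In CAST-/129- they numbered 258 higher and 161 lower, and were 263 and 125 with reads, 701 and 565 with a pseudo-value of 1, 587 and 581 with the last 1000 bases, 630 and 605 at 2-fold and 103 and 29 at 5-fold. In CAST-/129+ they numbered 149 and 104, and were 148 and 84 with reads, 427 and 407 with a pseudo-value of 1, 325 and 471 with the last 1000 bases, 384 and 482 at 2-fold and 56 and 16 at 5-fold. In CAST+/129- they numbered 101 and 96, and were 285 and 401 at 2-fold. Pathway calls in CAST-/129- numbered 5, and were 3 with all alignments as library size (over all genes 209 and 106) and 10 at 2-fold; in CAST+/129- they were 6 and in CAST-/129+ 8 at 2-fold, and in CAST-/129+ 5 with a pseudo-value of 1 and 5 with the last 1000 bases. At 10-fold, 3 members passed for H3K27ac in F123, beside 20.8% of protein-coding genes. The Dnmt3b exon values were 30.6% in wild type, 65% in CAST+/129- and 55.5% in CAST-/129+ with reads, and 62.5% and 56% in those clones by exon edges. Of the 24 member ratios, 13 had 1 sign in all 11 settings, among them all those of Tet1, Tet2, Dnmt3b and Dnmt3l. Settings that change only the pseudo-value cannot change a sign, and several of the others reuse most of the same counts. Depth limits Tet3, with 236 to 314 alignments in the clones, and the exon-edge ratios, which exon and read length limit too. The causes of the changes were not tested.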
